A study of Rattus norvegicus with 19 samples.

Results

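The 6 genes Cib2, Gjb2, Cdkn2c, Rgs5, Rnd2 and Dap were selected on their log2 ratios. The mean ratios in livers of rats on a high protein diet (HP) and on a high fat diet (HF) lay on the same side of the mean of control rats. Each gene was measured by 1 probe in 1 spot, so the set holds 6 of 41012 non-control probes and 6 of the 22248 features tested. All 6 probes passed the filter on dim probes, and the liver signal was well above background and not saturated in all 19 livers. The genes were thus chosen by the comparisons of HP with Control and of HF with Control. All 6 had, in both and with the same sign, an adjusted p under 0.05 in a limma linear model over all features (a call). The values of these genes in those comparisons are therefore a description and carry no test. Among the 22248 features, 15 met that criterion (0.0674%), 10 of them higher and 5 lower in both diets, and 0 met it in opposite directions. Both comparisons used the same Control livers, which favours like signs, so nothing is read from the 15 against 0. Of the 15, 8 had a gene name, the 6 genes here together with Gstm7 (log2 difference 0.69 in HP and 0.71 in HF) and Slc43a1 (0.51 and 0.56). Rnd2 and Cdkn2c lay closest to the criterion from within. Just outside it lay Hpd (0.77 in HP and 0.45 in HF) and Phyh (0.57 and 0.54).

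The livers came from male Wistar rats, an outbred laboratory strain, which began their diets at 8 weeks of age and kept them for 4 months. In the Control diet (n = 7) carbohydrate made up 70% of energy, protein 20% and fat 10%. In the HP diet (n = 6) protein, mostly casein, made up 45%, carbohydrate 45% and fat 10%. In the HF diet (n = 6) fat made up 60%, carbohydrate 20% and protein 20%. Both diets thus replaced carbohydrate, one with protein and the other with fat, and the rats were killed fed in the early morning. Each 2-colour array carried 1 liver in Cy5 and a common equimolar liver pool in Cy3, and a level below is the log2 ratio of the liver to the pool.

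The array gave Cy5 signals well above background at 54.2% to 67.5% of spots. All 13 measured hepatocyte markers, such as albumin and transthyretin, were well above background in all 19 livers. One liver, Control 6, stood apart. The median ratio of its 4 measured lymphocyte markers was 2.81, against -1.38 to -1.10 in the other 18 livers, and the SD of its log ratios was 0.45 against 0.20 to 0.29. The differences of the 6 genes from Control are given with and without it below.

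The 6 genes share no single pathway. Cib2 is a small calcium-binding protein of the calcium and integrin binding family and is best known for its role in the hair cells of the inner ear. Gjb2 is connexin 26, a subunit of the gap junction channels through which hepatocytes exchange small molecules. Cdkn2c is the inhibitor p18, which binds the cyclin-dependent kinases of early G1 and holds back entry into the cell cycle. Rgs5 shortens signals from G protein coupled receptors by speeding up GTP hydrolysis on the G protein and is a marker of pericytes, the mural cells of small vessels. Rnd2 is an atypical small GTPase that stays bound to GTP and acts on the cytoskeleton. Dap is a small proline-rich protein, a substrate of the nutrient-sensing kinase mTORC1 and a suppressor of autophagy.

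The promoters are shown because the genes moved together by selection, and so that their composition can be read beside the values. RefSeq promoter entries of the build GRCr8, from 250 bases before to 50 after the start, matched 5 of the 6 genes, all but Rnd2. The windows of the pair whose ratios were most alike, Cib2 (chr8:63843228-63843527, minus strand) and Gjb2 (chr15:35381904-35382203, minus strand), and of the pair that lay above every Control liver in both diets, Rgs5 (chr13:84380827-84381126, plus strand) and Dap (chr2:83909863-83910162, plus strand), are given 5′ to 3′. Capitals mark the GC box GGGCGG in either orientation and, in Cib2, a CCAAT box that overlaps a GC box.
Cib2: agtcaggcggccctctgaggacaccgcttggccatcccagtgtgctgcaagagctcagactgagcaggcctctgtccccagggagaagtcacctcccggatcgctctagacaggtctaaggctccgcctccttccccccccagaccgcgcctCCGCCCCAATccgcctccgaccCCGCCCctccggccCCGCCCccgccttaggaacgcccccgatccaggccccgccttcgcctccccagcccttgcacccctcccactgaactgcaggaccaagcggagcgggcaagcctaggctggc
Gjb2: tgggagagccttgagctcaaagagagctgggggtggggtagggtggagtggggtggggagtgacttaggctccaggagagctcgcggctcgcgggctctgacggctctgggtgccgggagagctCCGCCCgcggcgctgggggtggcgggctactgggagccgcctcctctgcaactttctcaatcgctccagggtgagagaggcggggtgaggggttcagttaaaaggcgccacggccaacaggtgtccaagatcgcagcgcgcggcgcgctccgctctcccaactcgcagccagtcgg
Rgs5: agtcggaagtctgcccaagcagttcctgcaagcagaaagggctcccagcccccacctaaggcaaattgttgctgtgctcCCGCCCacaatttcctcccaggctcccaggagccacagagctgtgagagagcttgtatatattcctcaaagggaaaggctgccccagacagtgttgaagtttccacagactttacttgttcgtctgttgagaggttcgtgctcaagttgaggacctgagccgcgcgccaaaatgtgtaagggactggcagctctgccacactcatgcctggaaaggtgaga
Dap: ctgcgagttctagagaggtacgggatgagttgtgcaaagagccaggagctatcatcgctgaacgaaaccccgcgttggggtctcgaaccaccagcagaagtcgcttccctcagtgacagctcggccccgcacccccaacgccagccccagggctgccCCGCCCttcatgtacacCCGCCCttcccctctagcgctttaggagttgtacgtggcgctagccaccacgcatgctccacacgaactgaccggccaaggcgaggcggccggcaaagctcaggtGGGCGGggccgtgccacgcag

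The GC box was found in 5 of 5 windows, with 3 copies in Cib2, 3 in Dap and 1 each in Gjb2, Cdkn2c and Rgs5. It was held by 33.1% of all 33469 promoters of that length, and by 59.2% of the 11351 whose GC content lay between the lowest and highest of the 5 genes, 54.3% for Rgs5 and 70.0% for Cib2. The median GC content of all promoters was 51.7%. CCAAT was found in 1 of 5 (37.5% of all promoters). The E-box CACGTG (6.42%), the TATA box TATAAA (14.2%) and the cAMP response element TGACGTCA (1.83%) were found in 0 of 5. All motifs were searched on both strands. A match is a description of the letters, not of a bound site.

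Cib2 (probe A_43_P10824, rn4 chr8:58095063-58095122, minus strand) had the widest spread and the largest differences of the 6 genes. Its log2 ratio ran from -0.29 to 1.80 with a median of 0.27 in Control livers. It ran from -2.39 to -1.15 with a median of -1.55 in HP and from -2.09 to 0.00 with a median of -0.97 in HF. All 6 HP livers lay below all 7 Control livers, and 5 of 6 HF livers did, HF 6 being the exception. The mean was 0.70 ± 0.92 (SD, n = 7) in Control, -1.72 ± 0.52 (n = 6) in HP and -0.95 ± 0.77 (n = 6) in HF. The ratio was 5.33-fold lower in HP than in Control (log2 difference -2.41, SE 0.39) and 3.14-fold lower in HF (-1.65, SE 0.39). In a whole-liver sample, fewer cells that carry an RNA and less of it per cell cannot be told apart.

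The Control livers of Cib2 lay at separate levels. Control 2, 3 and 5 had ratios of 1.73, 1.41 and 1.80. Control 1, 4, 6 and 7 had -0.25, -0.29, 0.21 and 0.27. Slides 1 and 2 each held a high and a low Control liver, so the split did not follow the slide. The within-diet SD of Cib2, 0.77, was higher than that of 99.3% of features, whereas the other 5 genes had within-diet SDs of 0.14 to 0.19 beside a median of 0.14 over all features. The signal of the Cib2 spot itself ran from 703 to 4175 scanner units in Control, from 131 to 408 in HP and from 130 to 937 in HF. That of the pool stayed between 346 and 504 on the same arrays.

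**Figure D1:**
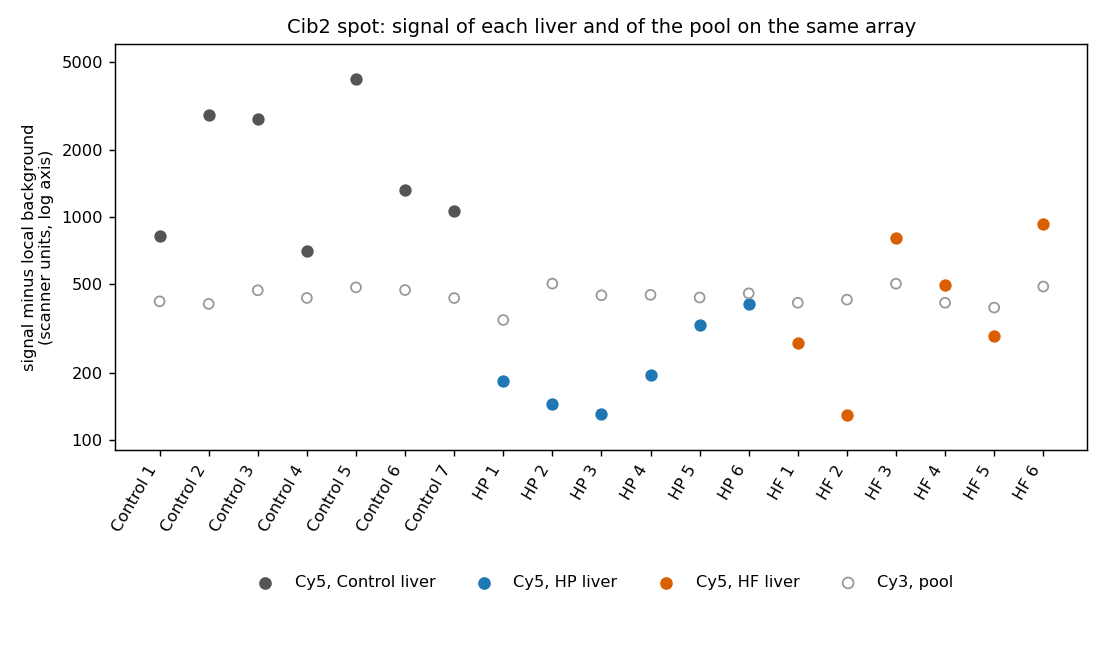
Signal minus local background of the Cib2 spot on each of the 19 arrays (log axis, scanner units), with filled points for the liver in Cy5 and open points for the pool in Cy3. The pool stays between 346 and 504 while the livers range from 130 to 4175, and the 6 HP livers lie below all 7 Control livers.

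Gjb2 (probe A_42_P489764, rn4 chr15:36153667-36153726, minus strand), the connexin, was lower in both diets. Its ratio ran from -0.03 to 0.52 with a median of 0.29 in Control livers, from -0.44 to -0.19 with a median of -0.26 in HP and from -0.55 to 0.03 with a median of -0.21 in HF. All 6 HP livers and 5 of 6 HF livers lay below every Control liver. The exception was HF 3, at 0.03, and the lowest Control liver was Control 6, at -0.03. Mean ratios were 0.27 ± 0.16 (SD, n = 7) in Control, -0.29 ± 0.11 (n = 6) in HP and -0.25 ± 0.22 (n = 6) in HF. The differences from Control were -0.56 (SE 0.09) in HP, 1.47-fold lower, and -0.51 (SE 0.09) in HF, 1.43-fold lower.

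Cdkn2c (probe A_43_P13144, rn4 chr5:131013102-131013161, minus strand), the G1 inhibitor, was lower in all 12 livers of both diets than in any Control liver. Control ratios ran from 0.03 to 0.54 with a median of 0.18, HP ratios from -0.56 to -0.03 with a median of -0.18, and HF ratios from -0.45 to -0.08 with a median of -0.21. The highest Control value, 0.54, was that of Control 6. The difference from Control was -0.45 (SE 0.10) in HP and -0.44 (SE 0.10) in HF, 1.36-fold lower in each. The Cdkn2c spot was dim, with signals of 81.2 to 198 scanner units in Control, 24.1 to 55.3 in HP and 43.1 to 60.1 in HF, so the offset of 50 added before the logarithm is of the size of the signal. With the processed signals of the scanner software the differences were -1.13 in HP and -1.01 in HF.

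Rgs5 (probe A_43_P12029, rn4 chr13:85480542-85482176, plus strand, a listed span of 1635 bases where the other 5 probes span 60) was higher in all 12 livers of both diets than in any Control liver. Control ratios ran from -0.38 to 0.02 with a median of -0.26. HP ratios ran from 0.05 to 0.42 with a median of 0.23, and HF ratios from 0.18 to 0.66 with a median of 0.29. Control 5, at 0.02, and HP 5, at 0.05, came nearest to each other, while HF 4 and HF 5, at 0.66 and 0.55, stood highest. The difference from Control was 0.45 (SE 0.08) in HP, 1.37-fold higher, and 0.60 (SE 0.08) in HF, 1.51-fold higher.

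Rnd2 (probe A_43_P17238, rn4 chr10:90496018-90496077, plus strand) was higher in both diets on average, with overlapping groups. Control ratios ran from -0.64 to 0.00 with a median of -0.54, HP ratios from -0.16 to 0.17 with a median of 0.02, and HF ratios from -0.36 to 0.24 with a median of -0.01. Control 4, at 0.00, lay among the livers of the other diets, and only 3 of 6 livers of each diet exceeded it. The other 6 Control livers lay at or below -0.33. The difference from Control was 0.48 (SE 0.10) in HP, 1.39-fold higher, and 0.43 (SE 0.10) in HF, 1.35-fold higher.

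Dap (probe A_44_P306639, rn4 chr2:83334719-83334778, plus strand), the mTORC1 substrate, was higher in all 12 livers of both diets than in any Control liver. Control ratios ran from -0.41 to -0.15 with a median of -0.22, HP ratios from -0.06 to 0.46 with a median of 0.06, and HF ratios from -0.05 to 0.13 with a median of 0.10. HP 4 and HP 6, at 0.46 and 0.30, lay above every HF liver, and the SD was 0.21 (n = 6) in HP against 0.07 (n = 6) in HF. The difference from Control was 0.39 (SE 0.08) in HP, 1.31-fold higher, and 0.34 (SE 0.08) in HF, 1.27-fold higher.

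**Figure D2:**
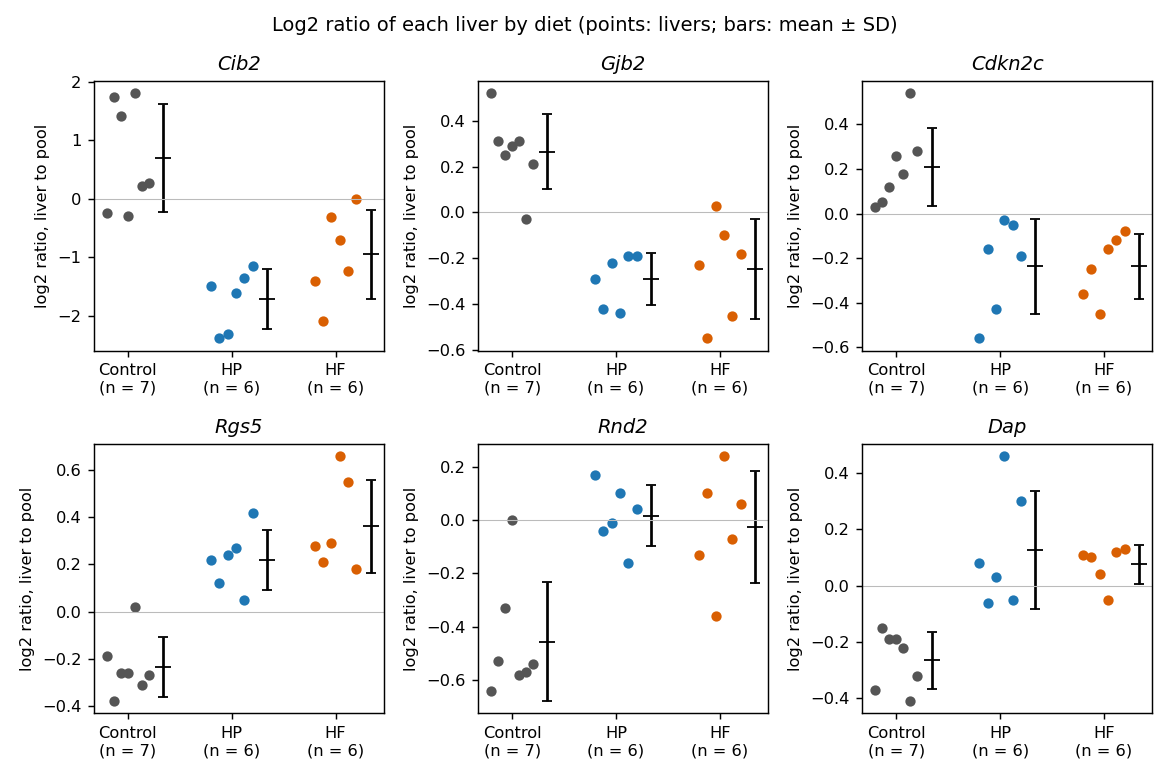
Log2 ratio of liver to pool for the 6 genes, 1 point per liver, by diet (Control n = 7, HP n = 6, HF n = 6), with bars for the mean ± SD. The HP and HF means lie below the Control mean for Cib2, Gjb2 and Cdkn2c and above it for Rgs5, Rnd2 and Dap. Single livers overlap with Control for Rnd2 in both diets and for Cib2 and Gjb2 in HF. The Control livers of Cib2 are split between 1.41 to 1.80 and -0.29 to 0.27.

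HP and Control livers did not overlap for 5 of the 6 genes, all but Rnd2, and HF and Control livers did not overlap for 3, Cdkn2c, Rgs5 and Dap. Over all features the groups did not overlap for 0.494% (higher) and 0.283% (lower) in HP and for 0.823% and 1.15% in HF. Calls by limma were made for 0.414% of features in HP over Control (0.274% higher and 0.139% lower) and for 3.63% in HF over Control (1.83% higher and 1.79% lower). Since the rule used these contrasts, nothing is read from the counts of the 6 genes against these shares. The pool channel differed between diets by at most 0.11 in size (log2) for any of the 6 genes, and the Cy5 channel alone gave differences of the same sign in both diets for all 6. Without Control 6 the differences in HP and HF were -2.49 and -1.73 for Cib2, -0.61 and -0.56 for Gjb2 and -0.39 and -0.39 for Cdkn2c. They were 0.44 and 0.59 for Rgs5, 0.46 and 0.41 for Rnd2 and 0.37 and 0.32 for Dap. With Control 6 left out, 3 of the 6 genes kept a call in both diets. The limma adjusted p in HP became 0.065 for Cdkn2c, 0.066 for Rnd2 and 0.054 for Dap.

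HP and HF livers were set against each other with limma over all features, among which 7.01% were called in this comparison (3.62% higher and 3.39% lower in HP). Of the 6 genes 0 were called, and because the rule asked for a like direction it favoured a small difference here. Cib2 had the largest difference, -0.76 on the log2 scale (95% interval -1.61 to 0.08, adjusted p 0.310), an interval that runs to a level over 1 log2 unit lower in HP. For Rgs5 it was -0.14 (-0.32 to 0.04, adjusted p 0.381). The other 4 genes had differences of 0.05 or less in size. For Gjb2 it was -0.05 (-0.24 to 0.15, 0.879) and for Cdkn2c -0.0023 (-0.21 to 0.21, 0.996). For Rnd2 it was 0.05 (-0.17 to 0.27, 0.892) and for Dap 0.05 (-0.11 to 0.22, 0.812). For all 6 genes the 2 groups overlapped, where 2.74% (higher) and 2.25% (lower) of features had none. A missed threshold does not show that the diets acted alike on these genes. With the slide as a fixed block the differences of HP from HF were -0.30 for Cib2, 0.28 for Rnd2 and 0.15 for Dap, and 0 of the 6 genes were called. Only slide 4 held both HP and HF livers, 2 and 1, so the blocked comparison runs mostly through Control livers. It is less precise, with an SE for Cib2 of 0.58 against 0.40 without the block.

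**Figure D3:**
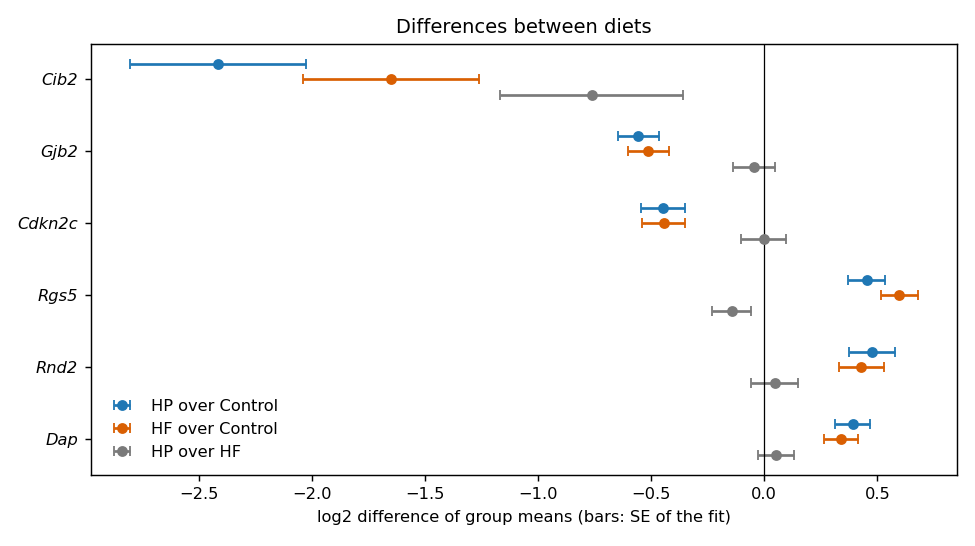
Log2 differences of group means for the 6 genes in HP over Control, HF over Control and HP over HF, with bars for the SE of the limma fit. The HP and HF points lie on the same side of 0 for every gene, and the HP over HF points lie between -0.76 (Cib2) and 0.05.

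The 19 arrays lay on 5 slides, and slides 2, 4 and 5 held both HP and Control livers while slides 1, 3 and 4 held both HF and Control livers. Within each of these slides all 6 genes had the sign they had over all livers. The rule chose the genes on these same livers, which favours like signs within slides, so the signs carry no test. On slide 4 the same single Control liver served both diets. The within-slide difference ran from -2.90 to -1.30 for Cib2 in HP and from -2.05 to -1.14 in HF. For Gjb2 it ran from -0.88 to -0.18 in HP and from -0.75 to -0.50 in HF, and for Rnd2 from 0.46 to 0.78 in HP and from 0.14 to 0.51 in HF. Each within-slide value rests on 1 to 3 livers a diet. With the slide as a fixed block in the fit, the differences in HP and HF were -2.20 and -1.91 for Cib2, -0.55 and -0.53 for Gjb2 and -0.47 and -0.42 for Cdkn2c. They were 0.42 and 0.59 for Rgs5, 0.57 and 0.29 for Rnd2 and 0.43 and 0.27 for Dap. With this block 0 of the 6 genes kept an adjusted p under 0.05 in HP, and 3 did in HF, Cib2, Gjb2 and Rgs5.

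**Figure D4:**
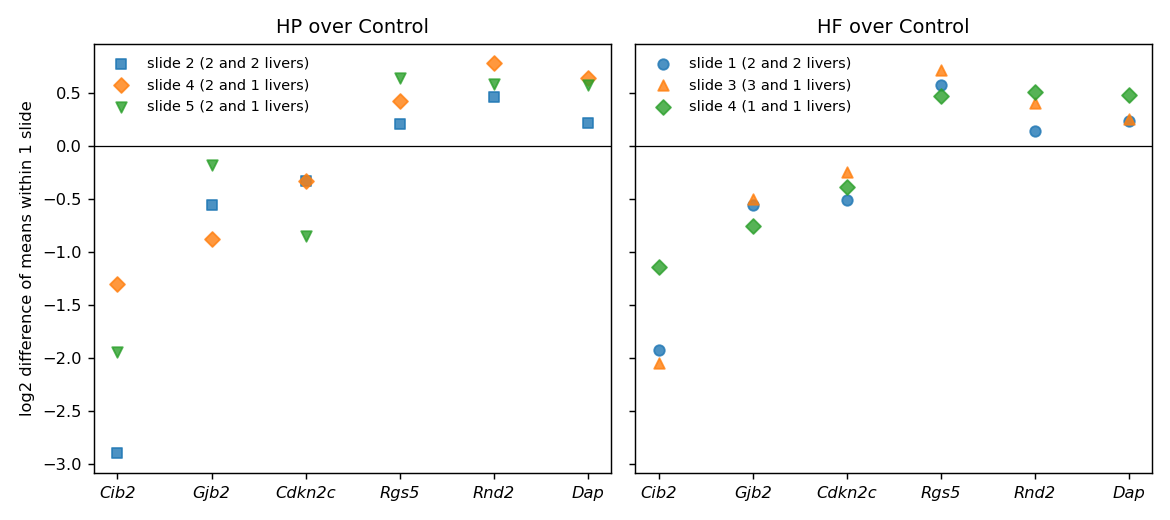
Log2 difference of diet means within each slide that held both groups, for HP over Control on the left and HF over Control on the right, with 1 symbol per slide and the numbers of livers (diet and Control) in the key. Every symbol lies on the side of 0 that the gene has over all livers, which the choice of genes favoured, with Cib2 between -2.90 and -1.14.

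Whether the 6 genes varied together from liver to liver was asked of their deviations from the diet means, which removes the shift the rule used. Of 15 pairs, 0 passed a permutation test that shuffled livers within diets (100000 resamples, two-sided, Benjamini-Hochberg over 15 pairs). The strongest was Gjb2 with Cdkn2c, at Pearson's r = -0.49 and a Spearman coefficient of -0.39 over 19 livers (permutation p 0.0295 and 0.115, adjusted 0.442 and 0.547). Without HF 2 and Control 6, the livers whose Gjb2 deviations lay farthest from their median, r was -0.42, and without Control 6 alone it was -0.36. The most positive pair was Cib2 with Gjb2, at r = 0.38 and a Spearman coefficient of 0.36 (permutation p 0.154 and 0.146, adjusted 0.576 and 0.547), and 0.27 without HF 2 and Control 4. With the diet differences left in, the same pair had r = 0.80.

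For each gene the 2 named genes with the most similar ratios over the 19 livers were sought among 10755 genes, as a description that includes the diet shift. For Cib2 these were Gjb2 (r = 0.80, and 0.38 for deviations from the diet means) and Spmip4 (0.77 and 0.46). For Gjb2 they were Tfpi, the tissue factor pathway inhibitor (0.85 and 0.66), and Cdc42bpg (0.83 and 0.77). For Cdkn2c they were Slc9a9, a sodium-proton exchanger (0.79 and 0.63), and Cst3, cystatin C (0.77 and 0.56), which dropped to r = 0.70 and 0.65 without Control 6. Rgs5 was most like Bdkrb2, the bradykinin B2 receptor (0.88 and 0.55), and Slc16a10, an aromatic amino acid transporter (0.86 and 0.56). Slc16a10 was higher than Control by 0.61 in HP and 0.85 in HF. Rnd2 was most like Synpo2 (0.86 and 0.75) and Slc43a1, a neutral amino acid transporter (0.86 and 0.62). Dap was most like Hagh, a glyoxalase (0.84 and 0.63), and Bcl2l1, an inhibitor of apoptosis (0.83 and 0.70).

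The families of the 6 genes were counted next, without the 6 genes themselves, and read against the calls over all features. Of 14 other connexins and pannexins, 0 were called in HP, and 2 were higher and 0 lower in HF, 1 without Control 6 (medians 0.07 and 0.09, against -0.01 over all features). Gja4, the vascular connexin 37, was 0.38 higher in HF (SE 0.08, limma adjusted p 0.00866) and 0.24 higher in HP (adjusted p 0.176), opposite in sign to Gjb2. With the slide as a fixed block its adjusted p in HF was 0.147. Gjb1, connexin 32, the partner of Gjb2 in hepatocytes, named here after its values were seen, differed by 0.24 in HP (SE 0.08, adjusted p 0.170) and 0.11 in HF (SE 0.08, adjusted p 0.567).

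Of 14 genes of the calcium and integrin binding family and its partners, 0 were called in either diet by limma, with 0 in HP and 3 in HF at an unadjusted p under 0.05, which 14.3% and 15.8% of all features passed. The smallest p values belonged to Itga7, an integrin subunit (0.27 in HF, SE 0.08, adjusted p 0.0833), and the kinase Pak1 (-0.33 in HF, SE 0.10, adjusted p 0.0957). The medians of this list were -0.01 in both diets, where Cib2 differed by -2.41 and -1.65. Cib2 was chosen on those differences, so nothing is read from its distance to the list. Of 24 CDK inhibitors and G1 genes 0 were called in either diet, with 4 in HP and 1 in HF at an unadjusted p under 0.05. Cdkn2b, which belongs with Cdkn2c to the INK4 inhibitors, differed by 0.17 in HP (SE 0.06, adjusted p 0.187) and 0.02 in HF. Cdkn1b, the inhibitor p27, differed by -0.40 in HP (SE 0.15, adjusted p 0.210) and -0.14 in HF.

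Among 9 other RGS genes, 1 was higher and 0 lower in HP, and 0 were called in HF (0 also at an unadjusted p under 0.05). That gene was Rgs4, which like Rgs5 acts on Gi and Gq proteins. It was 0.52 higher in HP (SE 0.09, limma adjusted p 0.0141), a call kept in 19 of 19 fits with 1 liver left out and with the slide block (0.0395). In HF Rgs4 differed by 0.12 (adjusted p 0.577), and HP exceeded HF by 0.40 (adjusted p 0.0101, and 0.0618 with the slide block). For Rgs5 the difference from Control was 0.45 in HP and 0.60 in HF, and HP over HF did not pass (adjusted p 0.381). The median of the 9 genes in HP was -0.18 and became 0.03 without Control 6, whose own median over the list was 1.29 against -0.38 to -0.01 in the other livers.

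Of 22 related small GTPases and partners of Rnd2, 0 were called against Control in either diet, with 4 in HP and 1 in HF at an unadjusted p under 0.05. Rock2 differed by -0.18 in HP (SE 0.07, adjusted p 0.250) and Plxnb1 by 0.22 (SE 0.09, adjusted p 0.272). Of 37 genes that share the death-associated name with Dap or belong to autophagy with mTORC1, 0 were called against Control. At an unadjusted p under 0.05 there were 5 in HP and 7 in HF. Dapk3, a death-associated kinase, differed by 0.29 in HP (SE 0.07, adjusted p 0.0644) and by 0.00082 in HF. Pik3c3, the lipid kinase that starts autophagosome formation, differed by -0.70 in HP (SE 0.20, adjusted p 0.120). In HP over HF, 3 of the 37 genes were higher, beside 3.62% of all features, named here after their values were seen: Dapk3 (0.29, adjusted p 0.0142), Tsc2 (0.24, 0.0181) and the autophagy receptor Sqstm1 (0.51, 0.0353). Dap itself differed by 0.05 in that comparison.

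Because Rgs5 marks pericytes, 18 other pericyte and stellate cell markers were read beside it. Of these, 3 were higher and 0 lower in HF, beside 1.83% and 1.79% of all features, and 0 were called in HP. At an unadjusted p under 0.05 there were 7 in HF and 1 in HP, beside 15.8% and 14.3% of all features. The list medians were 0.11 in HP and 0.15 in HF. Some markers lay below Control in HF, named here after their values were seen. They were Ngfr (-0.10), Notch3 (-0.09), Dcn (-0.09), Pdgfrb (-0.06), Lrat (-0.0070) and Kcnj8 (-0.0065), none of them called. All other markers of the list lay above Control in HF. Reln, a stellate cell marker, was 0.52 higher in HF (SE 0.10, limma adjusted p 0.00350, and 0.0364 with the slide block). Hand2 was 0.39 higher (SE 0.07, adjusted p 0.00327, and 0.0823 with the slide block), and Abcc9, a pericyte potassium channel subunit, was 0.66 higher (SE 0.16, adjusted p 0.0223, lost without HF 3 or HF 4, with 0.55 to 0.75 over the 19 omissions). In HP the same genes differed by 0.17, 0.14 and 0.29 (adjusted p 0.445, 0.386 and 0.429). The difference between the diets passed for Reln (-0.35 in HP over HF, adjusted p 0.0440, lost in 12 of 19 omissions and with the slide block at 0.285) and not for Hand2 (-0.25, 0.0555) or Abcc9 (-0.37, 0.211). Per liver, the median ratio over the 18 markers ran from -0.15 to 0.09 in Control, from -0.10 to 0.05 in HP and from -0.04 to 0.28 in HF; the diets overlapped with Control. The part of the markers in the Rgs5 difference was not tested.

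**Figure D5:**
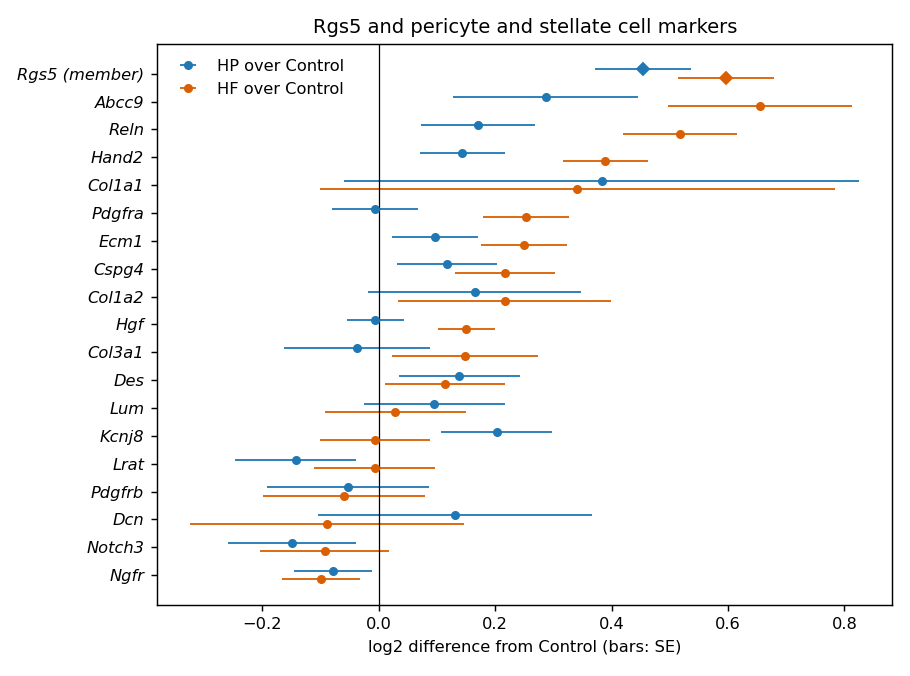
Log2 difference from Control of Rgs5 (diamonds) and of 18 pericyte and stellate cell markers (circles) in HP and HF, with bars for the SE of the limma fit, ordered by the HF difference. In HF, Abcc9 (0.66), Reln (0.52) and Hand2 (0.39) lie nearest to Rgs5 (0.60), and in HP all markers but Col1a1 lie below 0.30, while Rgs5 lies at 0.45. Rgs5 was chosen on these differences, so its place among the markers carries no test.

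Other cell types were read in the same way. Among 7 endothelial, 9 macrophage, 4 lymphocyte and 8 cholangiocyte markers 0 were called against Control by limma in either diet. Without Control 6, 1 cholangiocyte marker was lower in HF. At an unadjusted p under 0.05 there was 1 endothelial marker in each diet and 1 cholangiocyte marker in HF. Among the smallest p values were those of Stab2 (0.22 in HF, adjusted p 0.0826), Eng (0.19 in HP, 0.153), Clec4f (0.26 in HP, 0.495) and Muc1 (0.12 in HF, 0.529). The macrophage marker Lyz2 lay on opposite sides of Control, at -0.41 in HF (adjusted p 0.366) and 0.37 in HP (0.445), and was higher in HP than in HF (0.77, adjusted p 0.0358). The lymphocyte markers Cd8a (-0.51 in HP, 0.532) and Cd3g (-0.89 in HF, 0.612) had the smallest p of their list in either diet. The medians of that list, -0.58 in HP and -0.60 in HF, became 0.05 and -0.01 without Control 6. Of 13 hepatocyte markers, Cps1 was higher in HP (0.62, adjusted p 0.0329, lost without Control 1, 2, 3 or 6 or any HP liver, and 0.0935 with the slide block), and Cyp3a2 (1.27, adjusted p 6.4e-05) and Cyp2e1 (1.65, adjusted p 0.000153) were higher in HF. The median hepatocyte marker per liver ran from 0.00 to 0.23 in Control, from 0.12 to 0.32 in HP and from 0.12 to 0.30 in HF. Its part in the differences of the 6 genes was not tested.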

How the data were processed

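The deposited scanner files give each spot's intensity and local background, from Agilent Feature Extraction 10.5.1.1 per the submitters' processing notes, with probe positions on build rn4 per the file headers. The authors also deposited log2 values with a common column median of 8.205; the steps behind them are not given in the sources used here, and they served as an alternative. Here, 34 spots whose local background exceeded the signal by over 50 were dropped, background was corrected by normexp (offset 50), log2 ratios of Cy5 to Cy3 were loess-normalised, and probes well above background in Cy5 on at least 6 of 19 arrays were kept. The brightest probe stood for a gene. One limma 3.58.1 fit (R 4.3.3) over 3 diets was adjusted by Benjamini-Hochberg over 22248 features, and the script was tested on simulated data. There are no dye swaps.

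The genes, lists and tests were chosen with earlier results of these data known. Named genes are the 6 members, the 2 genes most like each over the livers and, per list, up to 4 called genes with the smallest p against Control, or up to 2 uncalled; exceptions are marked. Counts include genes whose own values are left out of the text. Rats are separate animals. Like-numbered livers of different diets did not deviate together (18 pairs, mean r -0.010, 1 over 0.1), so numbers were not used as pairs. Promoters came from RefSeq (GRCr8). The position of a probe within its transcript was not analysed here. Arrays give no counts, so their number limits precision.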

Additional observations from a re-analysis of the deposited data

How the results depend on the processing

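Over 14 alternatives and 19 fits that each left out 1 liver, all 6 genes kept their direction in HP over Control and in HF over Control. The genes were chosen on these directions and the fits reuse the same livers, so the kept signs carry no test. A call in both diets, as all 6 had, was met by 2 to 6 of the 6 genes when 1 liver was left out (2 without Control 1, Control 2, HP 4 or HP 6), by 2 with normexp fitted on every spot by 0 with the slide as a fixed block and by 3 to 6 under the other 12. Differences of HP from HF near 0 changed sign. That of Cdkn2c became 0.0077 with normexp on every spot and 0.017 with the deposited values, that of Gjb2 became 0.023 with median centring, 0.029 with Cy5 alone and 0.035 with the deposited values, and that of Rnd2 became -0.057 with Cy5 alone. The slide as a fixed block moved Rnd2 from 0.05 to 0.28, Dap from 0.05 to 0.15 and Cib2 from -0.76 to -0.30. With 1 liver left out they ran from -0.11 to 0.011 for Gjb2, from -0.045 to 0.063 for Cdkn2c, from -0.021 to 0.10 for Rnd2 and from -0.015 to 0.089 for Dap. The processed signals moved Cdkn2c to -1.13 in HP and -1.01 in HF and Rgs5 to 0.65 and 0.82.

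The count over all features was less stable. In HP over Control it was 92, and 55 with normexp on every spot, 52 with processed signals, 31 with median centring, 47 with Cy5 alone and 20 with the slide as a fixed block. With the replicate number as a block it was 162. In deviations from the diet means, 5 of 19 livers were closest to a like-numbered liver. That number was not set against a share by chance, so it decides nothing about pairs. The count of calls in HP over Control was 374 without Control 7, and 19, 25, 60 and 43 without Control 1, 2, 5 or 6. It was 38, 22, 29 and 17 without HP 1, 2, 4 or 6. With the slide as a fixed block, HF over Control fell from 807 to 443 calls and HP over HF, for which only slide 4 held both groups, from 1560 to 343. With 1 liver left out these ran from 603 to 913 and from 1147 to 2193. The cause of these shifts was not tested. Each gene rests on 1 spot per array, and the size of the fold depends on the processing for the dim spots of Cdkn2c and Rgs5.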
